A study of Mus musculus with 8 samples.

Results

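The genes described here encode 5 molecules with which helper T cells instruct B cells: Il21 and Il4 (secreted cytokines), Cd40lg (the membrane ligand CD40L), and Icos and Cd28 (costimulatory receptors). They were chosen by name, with earlier results of these data known. By Ensembl ID all 5 were found among the 39179 genes of the count files. All 5 also passed the filter on low counts that left 11475 tested genes. Antigen-specific CD4 T cells of Smarta mice, whose T cell receptor is transgenic and recognises the viral peptide GP61-80, were studied as follicular helper (Tfh) cells and as activated cells outside that subset (non-Tfh). All 4 groups came from donors that also carried a CreERT2 recombinase, were transduced with a retrovirus, were transferred into C57BL/6 recipients, which keep their own lymphocytes, and met antigen in recipients immunized under the skin with nitrophenol and the peptide on mouse serum albumin. The groups, with 2 libraries each, were Tfh cells with an inducible Bach2 vector, Tfh cells with an empty vector, non-Tfh cells with the Bach2 vector and non-Tfh cells with the empty vector. Per the labels, which give 1 protocol for all groups, the vector was induced with tamoxifen on day 5, and the cells were taken 18 hours later, on day 6, from inguinal lymph nodes that had been pooled. The labels give neither the ages of the animals nor the promoter of the Cre transgene, and do not say whether the 2 libraries of a group were separate animals, so p-values measure the spread between these libraries, which may be technical.

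Tfh cells enter the B cell follicle and help germinal centre B cells to survive, switch antibody class and mature. IL-21 acts on B cells through a receptor with the common gamma chain and drives germinal centre growth and plasma cell formation, and IL-4 promotes switching to IgG1 and IgE in mice. CD40L engages CD40 on the B cell. ICOS binds ICOSL on the B cell, CD28 binds CD80 and CD86 on antigen-presenting cells, and both receptors signal through PI3 kinase. Bach2 is a transcription repressor that binds sites shared with AP-1 factors.

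Library totals ran from 7862879 to 9889859 counts. Bach2 itself checked the vector, with 120.9 and 134.8 CPM (the library's reads set to a common total, after TMM scaling) in Tfh cells with the Bach2 vector, against 11.2 and 14.0 CPM in Tfh cells with the empty vector. In non-Tfh cells it had 130.5 and 157.5 CPM with Bach2, against 24.9 and 28.9 CPM with the empty vector. The summed level of 7 Tfh markers was 1657 to 2121 CPM in Tfh cells with Bach2, 1991 to 2505 CPM in Tfh cells with the empty vector, 275 to 329 CPM in non-Tfh cells with Bach2 and 380 to 446 CPM in non-Tfh cells with the empty vector. Cxcr5 and Pdcd1, which are among those markers, encode the receptors used for sorting. The 6 CD4 T cell markers all had counts in each group, with sums from 4661 to 6577 CPM.

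Of the 4 genes with counts above the floor in both cell types (all but Il4), Il21 had the largest estimated vector effect in each, and its level was higher in Tfh than in non-Tfh libraries. It had 233 and 207 CPM in Tfh cells with Bach2, against 394 and 297 CPM in Tfh cells with the empty vector. The non-Tfh cells had 28.8 and 16.5 CPM with Bach2, against 62.4 and 56.0 CPM with the empty vector. Both Bach2 libraries lay below both empty vector libraries in each cell type, and every Tfh library lay above every non-Tfh library. The group means were 220 ± 18.4 CPM in Tfh cells with Bach2 and 345 ± 68.4 CPM in Tfh cells with the empty vector, and 22.7 ± 8.67 CPM in non-Tfh cells with Bach2 and 59.2 ± 4.54 CPM in non-Tfh cells with the empty vector (SD, n = 2 each). In these sorted pools, fewer cells that express a gene and less RNA per cell cannot be told apart.

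The log2 fold change of Il21 with Bach2 was -0.65 (SE 0.215, adjusted p = 0.208) in Tfh cells. In non-Tfh cells it was -1.39 (SE 0.258, adjusted p = 0.0862). Here and below p comes from the quasi-likelihood test of edgeR, with Benjamini-Hochberg adjustment over all tested genes. Neither passed the threshold of 0.05 by itself in that test. DESeq2 called the non-Tfh change (adjusted p = 0.00233) and not the Tfh change (0.281), and over the 15 alternatives 7 called the non-Tfh change and 5 the Tfh change. The mean of the 2 vector effects, which uses all 8 libraries, was -1.02 (SE 0.168, adjusted p = 0.0200), so Il21 fell to 0.493 of its level with the empty vector, with a 95% interval of the log2 change from -1.42 to -0.62. That call was lost without replicate 1 (-0.98, adjusted p = 0.0761) or replicate 2 (-1.06, adjusted p = 0.0830) of non-Tfh cells with the empty vector, and without replicate 2 of Tfh cells with Bach2 (-0.98, adjusted p = 0.0705). The interaction, the Tfh effect less the non-Tfh effect, was 0.74 (SE 0.336, 95% interval -0.06 to 1.53, adjusted p = 0.998), which does not show that the effects were alike. For the mean vector effects here and below, the fit takes all 8 libraries as independent. Same-numbered Tfh and non-Tfh libraries of a vector deviated from their group means together (correlation 0.240 with Bach2, 0.208 with the empty vector). Such pairing would make the SE of the mean too small, and the labels do not say what a number shares.

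Between cell types the Il21 difference was larger than between vectors. Il21 was 9.74-fold higher in Tfh than in non-Tfh cells with Bach2 (log2 3.28, SE 0.254, adjusted p = 0.000115) and 5.84-fold higher with the empty vector (log2 2.55, SE 0.234, adjusted p = 0.000290). With Bach2, 3 of the 5 genes were past the threshold between cell types, all higher in Tfh cells, where 24.4% of all tested genes were past it and 11.6% were higher. With the empty vector 4 of 5 were past it (3 higher, 1 lower), where 21.9% of all tested genes were past it, 10.6% higher and 11.3% lower. The Tfh libraries were apart from the non-Tfh libraries for all 5 genes with either vector, as for 59.8% of tested genes with Bach2 (30.5% lower in Tfh cells) and 62.2% with the empty vector (30.9% lower). These 2 comparisons share no library, but each shares its libraries with the vector comparisons. The member counts include Il4, which passed the filter on low counts only through its Tfh libraries. Its near absence in non-Tfh cells was known when it was picked, so its part in those counts gives no support.

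**Figure D1:**
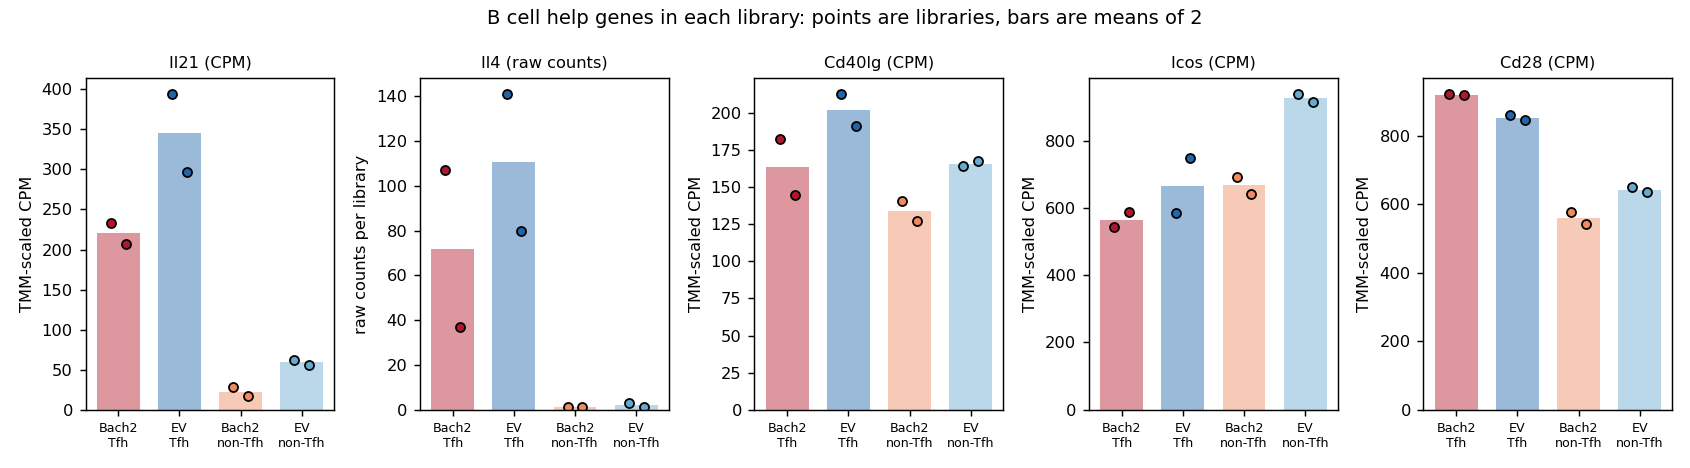
Level of each gene in every library (vertical axis, TMM-scaled CPM, or raw counts for Il4) by group (horizontal axis). Points are libraries and bars are means of 2. Il21 has all 4 Tfh libraries at 207 CPM or more and all 4 non-Tfh libraries at 62.4 CPM or less, while Icos is highest in non-Tfh cells with the empty vector.

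Il21 lies on chromosome 3, bases 37222759 to 37232636, on the minus strand (GRCm38, GENCODE M21). An antisense gene, Gm12534, lies inside it (bases 37231333 to 37232469, plus strand), and all 469 of its exon bases overlap annotated Il21 exons. The library kit does not mark strand, so reads of the pair cannot be told apart where they overlap. Gm12534 had 186 counts over the 8 libraries, against 11636 for Il21.

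Because the vector encodes a DNA-binding repressor, the promoter sequences of the members were searched for the core shared by AP-1 and Bach2, TGANTCA, and for the core of NFAT, GGAAA, the factor family that switches on cytokine genes after T cell receptor signals. RefSeq promoter windows (GRCm38.p6) were matched for 2 of the 5 genes, Il21 and Il4. The 250 bases before each start site are shown 5′ to 3′ on the minus strand, at chr3:37232637-37232886 for Il21 and chr11:53618666-53618915 for Il4, with the NFAT core in capitals on either strand (TTTCC is its reverse complement). They are shown because Il21 and Il4 were the members with a matched window.
Il21: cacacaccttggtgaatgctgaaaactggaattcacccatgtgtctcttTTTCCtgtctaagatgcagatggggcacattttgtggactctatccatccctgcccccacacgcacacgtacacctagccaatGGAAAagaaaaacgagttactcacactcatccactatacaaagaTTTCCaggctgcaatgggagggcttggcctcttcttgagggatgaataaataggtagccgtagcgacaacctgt
Il4: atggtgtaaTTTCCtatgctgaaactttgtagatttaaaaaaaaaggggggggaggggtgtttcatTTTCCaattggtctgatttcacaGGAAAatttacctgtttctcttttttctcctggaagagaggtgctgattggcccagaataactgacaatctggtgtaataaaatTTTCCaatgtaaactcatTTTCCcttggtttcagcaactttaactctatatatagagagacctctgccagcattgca
The NFAT core occurs 3 times in the Il21 window and 5 times in the Il4 window, and it occurs at least 1 time in 55.6% of 32817 promoter windows of that length, counted on both strands. A further RefSeq window of Il4, chr11:53617339-53617588, holds neither core and is not shown. The core TGANTCA is in neither printed window, and 6.75% of all windows hold it on either strand. These are matches of letters in a short window, and say nothing about binding there or elsewhere at these genes.

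Il4 counts were far higher in Tfh than in non-Tfh libraries. Il4 had 107 and 37 raw counts in Tfh cells with Bach2, against 141 and 80 counts in Tfh cells with the empty vector. In non-Tfh cells there were 1 and 1 counts with Bach2, against 3 and 1 counts with the empty vector. The Tfh libraries of the 2 vectors overlapped, and the non-Tfh libraries were all at or below the floor of 3 counts that a count of 0 allows.

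Summed over the group, Tfh cells with Bach2 had 144 Il4 counts (exact 95% Poisson interval 121 to 170), against 221 counts (193 to 252) in Tfh cells with the empty vector. Non-Tfh cells had 2 counts (0.242 to 7.22) with Bach2 and 4 counts (1.09 to 10.2) with the empty vector. Scaled for depth, the Tfh to non-Tfh ratio was 77.8 (exact 95% interval 21.1 to 648) with Bach2 and 56.1 (21.6 to 208) with the empty vector. The intervals cover counting error only. Il4 passed the filter on low counts only through its Tfh libraries, and its near absence in non-Tfh cells was known when it was picked. The tests that follow therefore give no separate support for the difference. By edgeR's test Il4 was higher in Tfh cells with Bach2 (adjusted p = 4.48e-05) and with the empty vector (adjusted p = 2.25e-05), and it passed in each of the 15 alternatives of both comparisons. With a library left out, the fitted log2 difference ran from 5.23 (without Tfh replicate 1) to 6.61 (without Tfh replicate 2) with Bach2, and from 5.17 (without non-Tfh replicate 2) to 6.61 (without non-Tfh replicate 1) with the empty vector. Il4 lies on chromosome 11, bases 53602982 to 53618669, minus strand.

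The vector effect on Il4 was not resolved at this depth. In Tfh cells the log2 fold change with Bach2 was -0.59 (SE 0.369, 95% interval -1.39 to 0.21, adjusted p = 0.477 by edgeR), and the 2 Bach2 libraries differed more from each other than the group means did. That change was -1.44 (adjusted p = 0.0718) without replicate 1 and -0.068 (adjusted p = 0.968) without replicate 2 of Tfh cells with Bach2, and -0.32 (adjusted p = 0.818) without replicate 1 of Tfh cells with the empty vector. In non-Tfh cells every library was at or under the floor, so neither that fold nor the mean vector effect built on it is given. The defining genes of basophils and mast cells, which also make IL-4, were nearly absent: Fcer1a, Ms4a2 and Gata2 were at 0 in all 8 libraries, and the 5 markers of that list summed to at most 0.362 CPM in any library. The part of other cells in the Il4 counts was not tested.

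Cd40lg differed little between groups, and its estimates with the vector were close in both cell types. It had 182 and 145 CPM in Tfh cells with Bach2, against 213 and 191 CPM in Tfh cells with the empty vector. Non-Tfh cells had 141 and 127 CPM with Bach2, against 164 and 167 CPM with the empty vector. The Bach2 libraries lay below the empty vector libraries in each cell type. The log2 fold change was -0.30 (SE 0.108, adjusted p = 0.179) in Tfh cells. For non-Tfh cells the estimate was -0.31 (SE 0.109, adjusted p = 0.310), so neither was past the threshold by edgeR.

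Over both cell types the mean vector effect on Cd40lg was -0.31 (SE 0.0766, adjusted p = 0.0357 by edgeR), a fall to 0.808 of the level with the empty vector. That call was lost without either library of Tfh cells with the empty vector (adjusted p = 0.0906 without replicate 1 and 0.0526 without replicate 2), without either library of non-Tfh cells with the empty vector (0.0978 and 0.132), without replicate 2 of Tfh cells with Bach2 (0.111) and without replicate 2 of non-Tfh cells with Bach2 (0.143). The interaction was near 0 (95% interval -0.32 to 0.33, adjusted p = 0.998). Cd40lg was estimated at 1.22 times its non-Tfh level in Tfh cells with either vector, with adjusted p = 0.0697 with Bach2 and 0.0767 with the empty vector, neither past the threshold. Cd40lg lies on chromosome X, bases 57212143 to 57224042, plus strand.

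Icos was the only one of the 5 genes whose estimates were below 0 for Tfh against non-Tfh cells. It had 542 and 586 CPM in Tfh cells with Bach2, against 585 and 747 CPM in Tfh cells with the empty vector. The non-Tfh libraries had 693 and 641 CPM with Bach2, against 938 and 915 CPM with the empty vector. The 2 vectors overlapped in Tfh cells and were apart in non-Tfh cells, where both Bach2 libraries were lower. The log2 fold change with Bach2 was -0.24 (SE 0.103, adjusted p = 0.278) in Tfh cells. The non-Tfh change was -0.47 (SE 0.103, adjusted p = 0.0515).

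The non-Tfh value of Icos lay at the edge of the threshold. It passed with DESeq2 (adjusted p = 0.00348) and in 9 of 15 alternatives in all, with adjusted p up to 0.376. The mean vector effect over both cell types was -0.36 (SE 0.0730, 95% interval -0.51 to -0.20, adjusted p = 0.0143), a fall to 0.781 of the empty vector level. That call was lost without replicate 1 (adjusted p = 0.0603) or 2 (0.0547) of non-Tfh cells with the empty vector and without replicate 2 of non-Tfh cells with Bach2 (0.0619). With the empty vector Icos was lower in Tfh cells (-0.48, SE 0.103, adjusted p = 0.00442), with no overlap of libraries. Without replicate 1 of Tfh cells with the empty vector that difference was -0.31 (adjusted p = 0.0568). With Bach2 the cell type difference was -0.24 (SE 0.103, adjusted p = 0.110). The interaction was 0.24 (95% interval -0.08 to 0.55, adjusted p = 0.998).

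Cd28 was higher in Tfh than in non-Tfh cells, and its vector estimates had opposite signs in the cell types. It had 921 and 919 CPM in Tfh cells with Bach2, against 860 and 845 CPM in Tfh cells with the empty vector. Among non-Tfh cells Cd28 had 576 and 541 CPM with Bach2, against 650 and 635 CPM with the empty vector. The Bach2 libraries were the higher ones in Tfh cells and the lower ones in non-Tfh cells, with no overlap in either. That arrangement was seen in 1.70% of tested genes, and opposite directions either way in 3.35%.

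Neither vector effect on Cd28 passed. The log2 fold change was 0.11 (SE 0.0740, adjusted p = 0.510) in Tfh cells. It was -0.20 (SE 0.0743, adjusted p = 0.345) in non-Tfh cells, and the mean of the 2 was -0.05 (95% interval -0.16 to 0.07, adjusted p = 0.686) by edgeR. The interaction was 0.31 (SE 0.105, 95% interval 0.09 to 0.54), with adjusted p = 0.883 by edgeR. Cd28 was higher in Tfh than in non-Tfh cells, by 1.65-fold with Bach2 (log2 0.72, SE 0.0745, adjusted p = 9.43e-06) and by 1.33-fold with the empty vector (log2 0.41, SE 0.0742, adjusted p = 0.00117). Both calls held in all 15 alternatives.

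**Figure D2:**
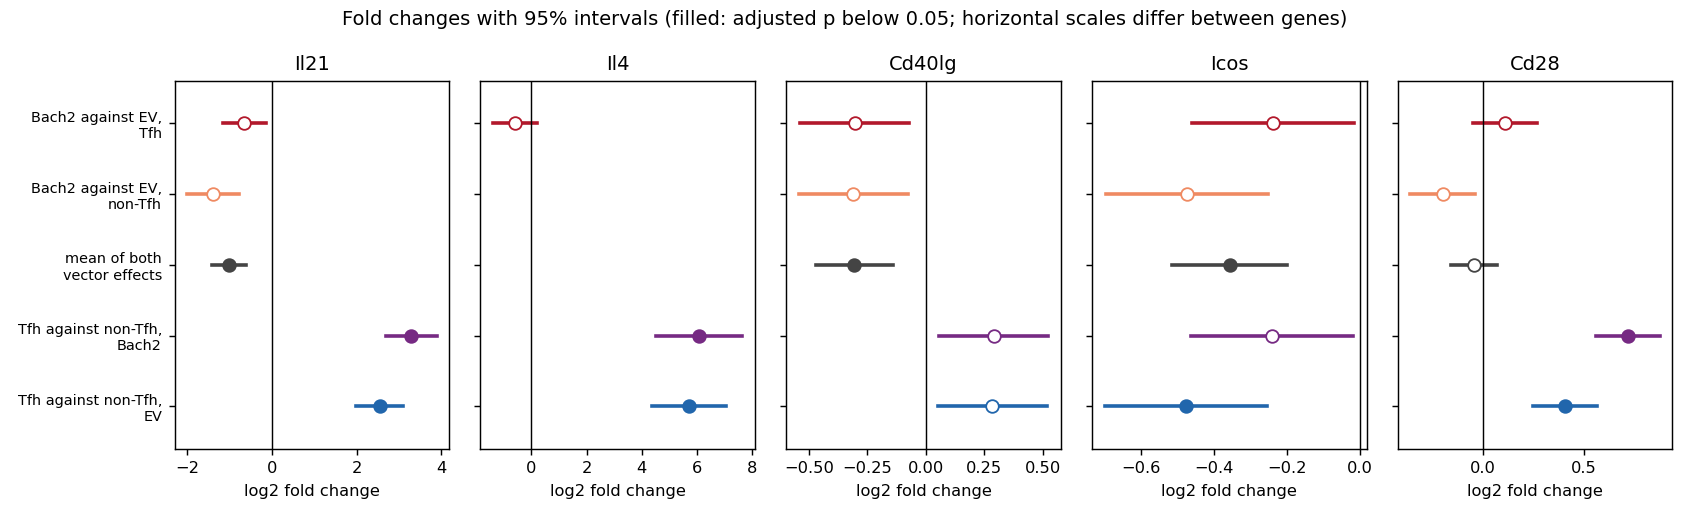
Log2 fold changes (horizontal axis, a scale of its own per gene) of the 5 genes with 95% intervals in 5 comparisons (vertical axis). Filled points have adjusted p below 0.05 by edgeR. The mean vector effect is past the threshold for Il21 (-1.02), Cd40lg (-0.31) and Icos (-0.36), and not for Cd28 (-0.05). For Il4 the non-Tfh vector effect and the mean are not drawn, since its non-Tfh libraries had at most 3 counts.

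In Tfh cells 0 of the 5 genes were past the threshold with Bach2 by edgeR, where 1.71% of tested genes were (1.16% lower). In the same comparison 3 of 5 had an unadjusted p below 0.05, and DESeq2 called 0. In non-Tfh cells it was also 0 of 5, where 0.871% of tested genes were past it (0.619% lower, 0.253% higher), with 4 of 5 at an unadjusted p below 0.05 and 2 called by DESeq2. For the mean vector effect 3 of 5 fell and 0 rose, where 5.27% of tested genes were past the threshold, 2.90% lower and 2.37% higher. The Bach2 libraries were apart from the empty vector libraries for 3 of 5 genes in Tfh cells (2 lower), as for 44.6% of tested genes (22.9% lower). They were apart for 5 of 5 genes in non-Tfh cells, all lower, as for 42.2% of tested genes (21.3% lower), and for Il4 only by library depth, since libraries with 1 count each were compared. The interaction had 0 of 5 and 0% of all tested genes past the threshold by edgeR, with 1 member (Cd28) and 539 genes at an unadjusted p below 0.05, and DESeq2 called 4 genes, 0 of them members. In 1086 of the tested genes (9.46%) both Bach2 libraries were below both empty vector libraries in each cell type, as for Il21 and Cd40lg.

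Icos and Cd28 both lie on chromosome 1 (bases 60977927 to 61000320 and 60716800 to 60773359, both on the plus strand), and their balance differed between the cell types. The ratio of Icos to Cd28 counts within a library does not depend on library scaling. It was 0.589 and 0.638 in Tfh cells with Bach2, against 0.681 and 0.884 in Tfh cells with the empty vector. The non-Tfh libraries had ratios of 1.20 and 1.18 with Bach2, against 1.44 and 1.44 with the empty vector. All 4 Tfh libraries were below all 4 non-Tfh libraries, and within each cell type the Bach2 libraries were below the empty vector libraries. The ratio restates the levels of the same genes given above and is no separate evidence. The share of other gene pairs with such an arrangement was not counted.

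**Figure D3:**
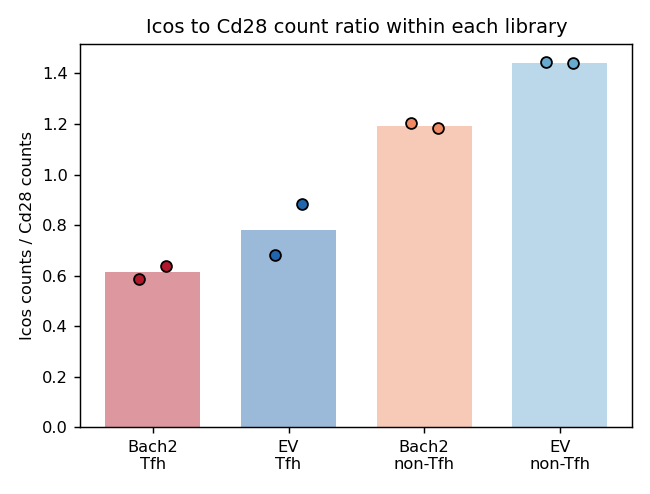
Ratio of Icos to Cd28 counts within each library (vertical axis, no unit) by group. Points are libraries and bars are means of 2. Tfh libraries lie between 0.589 and 0.884 and non-Tfh libraries between 1.18 and 1.44.

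Levels were compared between genes per kilobase of merged exons. In Tfh cells with Bach2 the means were 165 ± 9.09 CPM per kilobase for Icos, 150 ± 0.248 for Cd28, 131 ± 21.2 for Cd40lg, 41.8 ± 3.50 for Il21 and 6.55 ± 4.12 for Il4 (SD, n = 2). In Tfh cells with the empty vector they were 194 ± 33.3 for Icos, 162 ± 11.9 for Cd40lg, 139 ± 1.77 for Cd28, and 9.89 ± 2.32 for Il4; Il21, at 65.7, had a coefficient of variation of 19.8%. Neighbours in this order lay within their spread in Tfh cells for Icos, Cd40lg and Cd28, except Icos and Cd28 with Bach2 and Cd40lg and Cd28 with the empty vector, where the gap exceeded the larger SD.

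In non-Tfh cells Icos was above Cd40lg and Cd28 by more than the SDs. The means there were 195 ± 10.7 CPM per kilobase with Bach2 and 270 ± 4.64 with the empty vector for Icos, 107 ± 7.79 and 133 ± 1.82 for Cd40lg, and 91.3 ± 4.03 and 105 ± 1.65 for Cd28. Il21 had 4.31 ± 1.65 with Bach2 and 11.3 ± 0.862 with the empty vector, and Il4 0.0864 ± 0.00367 and 0.179 ± 0.124. Il21 was below those 3 genes and above Il4 in all 8 libraries. By the longest coding transcript (chosen after the data were seen) Cd28 exceeded Cd40lg in every library, which by merged exons held only in the Bach2 Tfh libraries. By that length Cd28 was also above Icos in both Bach2 Tfh libraries and in replicate 1 of the empty vector Tfh libraries, and by merged exons Icos was above Cd28 in all 8.

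Other cytokine genes were mostly too low to test. Of 17 T cell cytokines 9 were tested, and Il5 and Il9 had 0 counts in all 8 libraries while Il13 had 2 counts in 1 Bach2 Tfh library and 0 elsewhere. For the mean vector effect Il21 and Ifng, the type 1 cytokine that activates macrophages, fell and Il16, which encodes a CD4-binding chemoattractant, rose, with a list median of -0.37 against 0.00 over all tested genes. That median includes fitted values of Il4 and Csf2, each with 3 or fewer counts in every library of 1 cell type. Without Il21 and Il4 it was -0.31. For this list and those below, 5.27% of all tested genes passed in the mean vector effect (2.90% lower, 2.37% higher). Ifng had a mean vector effect of -1.05 (SE 0.154, adjusted p = 0.00422 by edgeR), past the threshold whichever library was left out. It averaged 10.6 ± 4.20 CPM in Tfh cells with Bach2 and 18.7 ± 0.895 CPM in Tfh cells with the empty vector, and 33.9 ± 2.23 CPM in non-Tfh cells with Bach2 and 81.7 ± 16.0 CPM in non-Tfh cells with the empty vector (SD, n = 2). The Il16 effect was small (0.21, adjusted p = 0.0398) and was lost whichever library was left out (adjusted p up to 0.174).

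Between cell types the cytokines split. In Tfh against non-Tfh cells with Bach2, Il4, Il21 and Il16 were higher and Ifng and Csf2 lower. With the empty vector the same 3 were higher and Ifng, Csf2 and Il22 lower. Of all tested genes, 24.4% passed between cell types with Bach2 and 21.9% with the empty vector. The Il4 difference was known when that gene was picked. Ifng was lower in Tfh cells, at a log2 difference of -1.69 (SE 0.228, adjusted p = 0.000208) with Bach2 and -2.12 (SE 0.209, adjusted p = 1.96e-05) with the empty vector. The Csf2 and Il22 calls rest on means of at most 1.65 and 2.36 CPM. The Csf2 call with Bach2 passed in 2 of 8 fits with a library left out, that with the empty vector was lost without replicate 1 of either cell type, and the Il22 call was lost without either Tfh library or replicate 1 of the non-Tfh libraries with the empty vector.

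Among 11 tested ligands of the TNF family, to which CD40L belongs, Cd40lg and Tnf fell in the mean vector effect and 0 rose, with a list median of -0.28. Without Cd40lg, 1 of 10 fell. Tnf, an inflammatory cytokine gene, averaged 26.3 ± 1.56 CPM in Tfh cells with Bach2 and 38.1 ± 6.67 CPM in Tfh cells with the empty vector, and 20.4 ± 1.61 CPM in non-Tfh cells with Bach2 and 33.2 ± 4.90 CPM in non-Tfh cells with the empty vector (SD, n = 2). Its mean vector effect was -0.62 (SE 0.116, adjusted p = 0.00937 by edgeR) and passed whichever library was left out. Between cell types the largest Tfh excess of this list was in Tnfsf8, which encodes CD30 ligand, by 1.71 with Bach2 (SE 0.103, adjusted p = 7.87e-08) and 1.74 with the empty vector (SE 0.102, adjusted p = 5.67e-08) on the log2 scale. Tnfsf10, which encodes the death ligand TRAIL, was lower in Tfh cells, at a log2 difference of -1.46 (adjusted p = 0.000579) with Bach2 and -1.75 (adjusted p = 0.000236) with the empty vector.

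Of the 5 CD28 family receptors, Icos alone passed for the mean vector effect, with a list median of -0.14. Ctla4, an inhibitory receptor that competes with CD28 for its ligands, had a mean vector effect of 0.23 (adjusted p = 0.237), Btla, another inhibitory receptor, -0.14 (adjusted p = 0.339) and Pdcd1, used in the sort, -0.43 (adjusted p = 0.384) by edgeR. Ctla4 was lower in Tfh cells, at a log2 difference of -1.11 (SE 0.148, adjusted p = 0.000101) with Bach2 and -0.81 (SE 0.149, adjusted p = 0.00138) with the empty vector, while Btla was higher by 0.85 (adjusted p = 6.29e-05) and 0.78 (adjusted p = 0.000136).

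**Figure D4:**
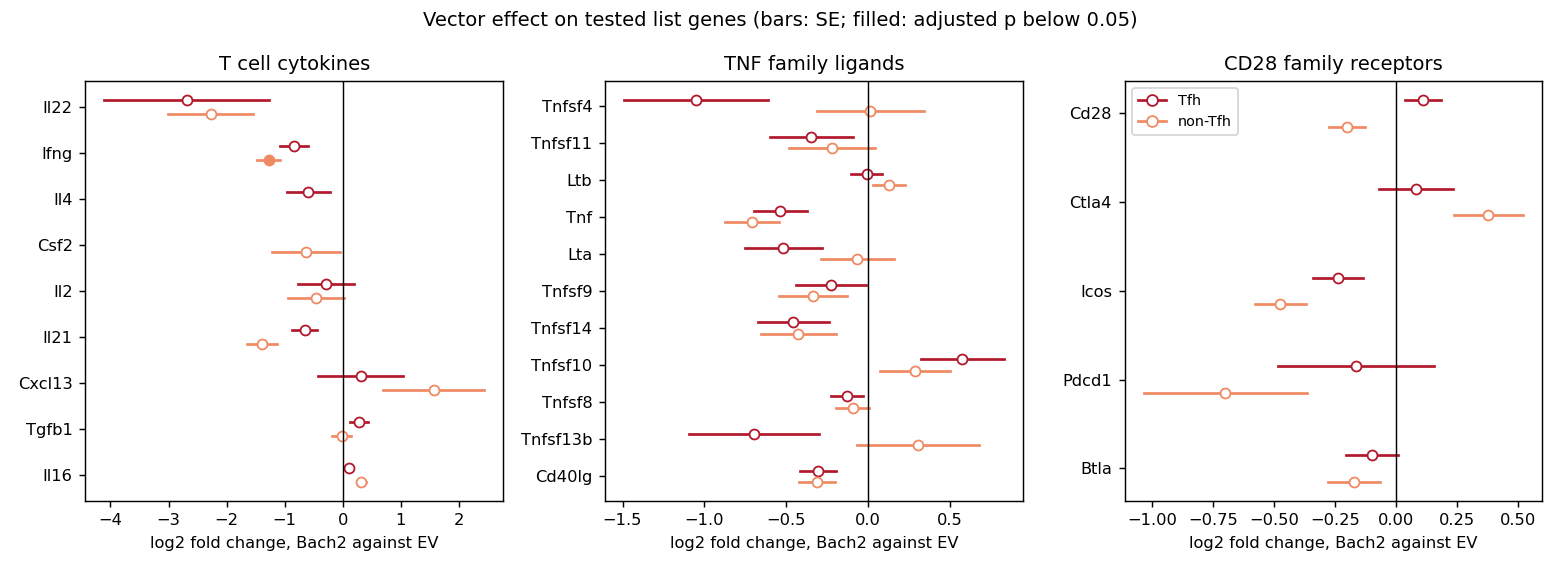
Vector effect (horizontal axis, log2 fold change of Bach2 against empty vector, bars are 1 SE) on the tested genes of 3 lists in Tfh and non-Tfh cells. Filled points have adjusted p below 0.05, and a comparison with 3 or fewer counts in every library (Il4 in non-Tfh, Csf2 in Tfh cells) is not drawn. Only Ifng in non-Tfh cells (-1.27, adjusted p = 0.0128) is filled. With a library left out that change ran from -1.45 to -1.05, and the call did not hold in every such fit.

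Of 18 genes of CD28 and ICOS signalling and of Icos mRNA decay, 2 rose and 0 fell in the mean vector effect, with a list median of 0.02. Pik3cd, the leukocyte catalytic subunit of PI3 kinase, had an effect of 0.41 (SE 0.0756, adjusted p = 0.00962 by edgeR), which was lost without replicate 2 of non-Tfh cells with the empty vector (adjusted p = 0.0522). Rc3h1, which encodes the RNA-binding protein Roquin that destroys Icos mRNA, had 0.26 (adjusted p = 0.127). Between cell types Malt1, a protease of antigen receptor signalling, was higher in Tfh cells by 1.23 (adjusted p = 7.15e-05) with Bach2 and 1.14 (adjusted p = 0.000130) with the empty vector.

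Of 14 tested genes for IL-4 and IL-21 receptors and their signalling, 3 rose and 1 fell in the mean vector effect, with a list median of 0.10. Socs1, which inhibits cytokine signalling, fell by 0.46 on the log2 scale (SE 0.0837, adjusted p = 0.00823 by edgeR) and passed whichever library was left out. It averaged 83.8 ± 1.34 CPM in Tfh cells with Bach2 and 127 ± 2.19 CPM in Tfh cells with the empty vector, and 52.7 ± 1.20 CPM in non-Tfh cells with Bach2 and 65.9 ± 12.2 CPM in non-Tfh cells with the empty vector (SD, n = 2). Il4ra, the IL-4 receptor chain, rose by 0.59 (SE 0.125, adjusted p = 0.0200) and passed in 4 of 8 fits with a library left out. Il4ra was lower in Tfh cells, at a log2 difference of -1.13 (adjusted p = 0.000579) with Bach2 and -0.84 (adjusted p = 0.00555) with the empty vector.

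Of 18 transcription factors known to act on the Il21, Il4 or Cd40lg genes, 2 fell and 0 rose in the mean vector effect, with a list median of 0.07. They were Maf, an activator of Il4 and Il21 (-0.35, SE 0.0761, adjusted p = 0.0176), and Bcl6, the factor that defines Tfh cells (-0.48, SE 0.0986, adjusted p = 0.0136), by edgeR. Maf was lost without replicate 2 of Tfh cells with the empty vector, of Tfh cells with Bach2 or of non-Tfh cells with the empty vector (adjusted p up to 0.107), and Bcl6 without replicate 2 of either non-Tfh group (adjusted p up to 0.0830). In Tfh cells alone Gata3, the activator of the Il4 locus, had 0.45 (adjusted p = 0.0465) with Bach2, and passed in 2 of 8 fits with a library left out. Between cell types the list split, where 24.4% (Bach2) and 21.9% (empty vector) of all tested genes passed. In Tfh cells 4 were higher and 5 lower with Bach2, and 3 higher and 4 lower with the empty vector. Nfatc1, which acts on cytokine promoters, was higher in Tfh than in non-Tfh cells by 1.38 with Bach2 (adjusted p = 1.24e-07) and 1.22 with the empty vector (adjusted p = 3.97e-07), and Maf by 0.91 (adjusted p = 3.57e-05) and 0.58 (adjusted p = 0.00131). Gata3 was among the lower ones with the empty vector, averaging 80.4 CPM in Tfh and 199 CPM in non-Tfh cells. Tbx21, another listed factor, was lower in Tfh cells with either vector.

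Genes whose pattern over the 8 libraries was most like that of a member were found by the root mean square difference of centred log2 CPM values. For Il21 the nearest were Il1r1 (difference 0.213, r = 0.991), which encodes an interleukin 1 receptor, and Cela1 (0.247, r = 0.988), followed by the overlapping antisense gene Gm12534 (0.279, r = 0.985). Reads of Gm12534 cannot be told from those of Il21, so its likeness may be that of Il21 to itself. Il1r1 averaged 82.6 CPM in Tfh cells with Bach2 and 115 CPM in Tfh cells with the empty vector, and 8.84 CPM in non-Tfh cells with Bach2 and 18.3 CPM in non-Tfh cells with the empty vector. For Il4 the nearest were Epdr1 (0.296, r = 0.993), Sccpdh (0.354, r = 0.991) and the Tfh factor gene Tox2 (0.380, r = 0.988). For Cd40lg they were D030056L22Rik (0.0575, r = 0.969), Nudt1 (0.0579, r = 0.968) and Sar1b (0.0633, r = 0.975). For Icos they were Zfp367 (0.0860, r = 0.954), Ifi30 (0.0912, r = 0.945) and Creld2 (0.103, r = 0.936). For Cd28 they were Ndufaf3 (0.0382, r = 0.992), Atp6v0d1 (0.0531, r = 0.999) and Ap3b1 (0.0633, r = 0.977). The correlations are over 8 libraries that fall into 2 cell types, and describe these libraries only.

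Markers of B cells, the partners of these molecules, differed with cell type. The summed level of 15 B cell markers was 855 to 1037 CPM in Tfh cells with Bach2, 955 to 1049 CPM in Tfh cells with the empty vector, 442 to 605 CPM in non-Tfh cells with Bach2 and 487 to 624 CPM in non-Tfh cells with the empty vector. Most of it was Ighm and Cd22. The other 13 summed to 15.2 to 32.1 CPM in Tfh cells with Bach2, 26.3 to 34.7 CPM in Tfh cells with the empty vector, 42.3 to 95.7 CPM in non-Tfh cells with Bach2 and 43.8 to 92.2 CPM in non-Tfh cells with the empty vector. Ms4a1, which encodes the B cell surface protein CD20, was at most 3.06 CPM in any library. The part of B cell RNA in the cell type differences of the 5 genes was not tested.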

How the data were processed

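RNA of sorted cells was amplified with Smart-Seq v4, and Nextera XT libraries were read as pairs (NextSeq500), per the labels' protocols. The deposited values are counts per Ensembl gene, made by the authors with TopHat2, Bowtie2 and featureCounts on GRCm38/mm10, per the submitters' processing notes. The sources used here do not give versions, annotation release, strand setting or the handling of multiply mapping reads. GENCODE M21 supplied symbols (37607 of 39179 IDs), positions and exon lengths.

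The filter on low counts was filterByExpr of edgeR (10 counts at least, 15 in total) and left 11475 genes. Counts were scaled with TMM and fitted over all 8 libraries, 1 coefficient per group (4 residual degrees of freedom), with the robust quasi-likelihood test of edgeR 4.0.16 in R 4.3.3. P-values were adjusted by Benjamini-Hochberg over all tested genes, with a threshold of 0.05. SEs were derived from the log2 fold change and its F statistic. An exact permutation of 2 against 2 libraries gives p = 0.333 at the least, so no single gene was tested that way. The procedure was tested on simulated data for Bach2 against empty vector in Tfh cells (11245 genes in the fit): it called 45 of 50, 44 of 49, 41 of 50 and 50 of 50 genes changed by -2, -1, 1 and 2 on the log2 scale, and 7 of 11046 unchanged genes. The simulated counts had the same dispersion for every gene, independent libraries, and no cell type or replicate difference. These shares are therefore not the power or error rate for real genes of larger spread, such as Il4. Levels per length are CPM per kilobase of merged exons. Log2 CPM for the search of like patterns used a prior count of 2. Members and lists were chosen with earlier results of these data known. Named genes were the 5 members, all CD28 family receptors, Bach2, up to 4 genes per list and comparison with the largest change past the threshold, and the 3 genes of most like pattern per member; Il5, Il9, Il13, Rc3h1, and Ifng (empty vector) and Maf between cell types were added after values were seen, as was Il16 there. Alternatives were DESeq2 1.42.0, its size factors in edgeR, other filters, a replicate block, a non-robust fit, fits of 2 groups and fits with 1 library left out. Library depth gave a floor (3 counts) of 0.301 to 0.380 CPM. The 2 libraries of a group were not copies (chi-square per degree of freedom 5.98 to 9.36). Faslg and Ighd were not matched and not used here. Promoters are from RefSeq. Single values of some list genes are not reported here.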

Additional observations from a re-analysis of the deposited data

Results flagged for a closer look

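Cd28 was the member whose libraries moved in opposite directions with the vector in the 2 cell types: both Bach2 libraries were above both empty vector libraries in Tfh cells and below them in non-Tfh cells. The interaction, the Tfh effect less the non-Tfh effect, was 0.31 on the log2 scale (SE 0.105), with adjusted p = 0.883 by edgeR. Of all tested genes, 195 (1.70%) had the same arrangement of libraries and 384 (3.35%) moved in opposite directions either way.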

How the results depend on the processing

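The Tfh to non-Tfh differences of Il21, Il4 and Cd28 kept their direction and stayed past the threshold in all 15 alternatives. In Tfh cells the Il21 vector effect passed with no filter (-0.65), with a replicate block (-0.64, adjusted p = 0.00513) and in a fit of the 2 groups alone (-0.65). In non-Tfh cells it passed with DESeq2 (-1.39), no filter (-1.39), the block (-1.41, adjusted p = 3.48e-05), a non-robust fit (-1.39) and 2 groups (-1.38). Cd40lg passed with no filter for the vector in Tfh cells (-0.30), for cell type with Bach2 with no filter (0.29) and the block (0.29), and for cell type with the empty vector with no filter (0.29), the block (0.28) and 2 groups (0.28). Icos passed for the vector in non-Tfh cells with DESeq2's size factors (-0.48), DESeq2 (-0.48), no filter (-0.47), the block (-0.47) and 2 groups (-0.47), and for cell type with Bach2 with no filter (-0.24). Counts of genes past the threshold for the vector in Tfh cells were 196, against 326 with DESeq2, 736 with no filter and 473 with the block. In non-Tfh cells they were 100, against 161, 332 and 207, for the interaction 0, against 4, 37 and 3, and for the mean vector effect 605, against 1255 with no filter and 975 with the block. The cause of these changes was not tested.

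With 1 library left out, where a lone library is assumed to vary like the others, the log2 values ranged as follows. Il21 ran from -0.84 to -0.43 for the vector in Tfh cells, -1.84 to -1.04 in non-Tfh cells and -1.25 to -0.84 for the mean. Il4 ran from -1.44 to -0.068 in Tfh cells, 5.23 to 6.61 for cell type with Bach2 and 5.17 to 6.61 with the empty vector. Cd40lg ran from -0.48 to -0.15 in Tfh cells, -0.40 to -0.23 for the mean, 0.12 to 0.45 for cell type with Bach2 and 0.21 to 0.36 with the empty vector. Icos ran from -0.40 to -0.055 in Tfh cells, -0.53 to -0.42 in non-Tfh cells, -0.44 to -0.26 for the mean, -0.30 to -0.18 for cell type with Bach2 and -0.66 to -0.31 with the empty vector. The interaction changed sign for Cd40lg (-0.17 to 0.16; -0.07 and -0.02 without replicate 2 of the empty vector Tfh and non-Tfh libraries, -0.17 without Bach2 Tfh replicate 1, -0.07 without Bach2 non-Tfh replicate 2) and for Il4 (-0.52 to 0.92; -0.52 without empty vector non-Tfh replicate 1, -0.47 without Bach2 Tfh replicate 1). The Il4 interaction rests on non-Tfh libraries with 1 to 3 counts, and its size cannot be read. Of genes that are no members, signs changed for the Tfh vector effect of Ctla4 (-0.14 to 0.33) and Pdcd1 (-0.55 to 0.14), which were -0.14 and 0.13 without empty vector Tfh replicate 1 and -0.062 and 0.14 without Bach2 Tfh replicate 2. The Btla interaction (-0.077 to 0.24) was -0.027 without empty vector non-Tfh replicate 1 and -0.077 without Bach2 non-Tfh replicate 2. Counts of genes ran from 21 to 254 for the vector in Tfh cells, 17 to 133 in non-Tfh cells, 190 to 764 for the mean, 0 to 1 for the interaction and 1341 to 2698 for cell type with the empty vector.

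The replicate block fits a term for the replicate number, which the labels do not say pairs libraries. Same-numbered libraries had deviations from their group means that correlated between -0.00413 and 0.240, above 0.1 for 4 of 6 pairs of libraries. The largest values were those between Tfh and non-Tfh cells with the same vector, 0.240 with Bach2 and 0.208 with the empty vector. Fos was higher in replicate 1 in every group, for example 105 against 37.4 CPM in Tfh cells with Bach2. The main fit did not take the numbers as pairs. It treats all libraries as independent, which those of a number may not be, so the SEs of the mean vector effect and of the interaction rest on that.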
